A study of Mus musculus with 23 samples.

Results

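Immediate early and activity genes are genes that neurons and glia switch on within minutes to hours of a stimulus, and 43 of them were followed here through a bulk RNA-seq study of the mouse orbitofrontal cortex (OFC). The members were listed by symbol and kept where the normalized count, reads divided by 1 size factor per library, was 10 or more in at least 5 of the 23 libraries. All 43 of 43 listed genes were in the table of 27178 genes, and all 43 were among the 16385 genes past that filter. They comprised 8 AP-1 family members or partners, 4 EGR factors, 3 NR4A receptors, 7 other factors of the nuclear response, 13 phosphatases, kinases and signalling brakes, 2 synaptic effectors and 6 secreted or signal-producing products.

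The mice were male wild-type C57BL/6J animals, with an age given as 8 weeks. On day 0 each received an AAV6 vector in which the promoter of the astrocyte gene Gfap drove either GFP alone or ZBTB7A, a zinc-finger transcription factor, together with GFP. On day 21 mice of the stress groups underwent subthreshold social defeat, a short confrontation with an aggressor, and mice of the control groups did not. The labels' schedule then places tests of sociability, sucrose intake and forced swim on days 22 through 27, and infected OFC was dissected on day 28. There were 5 libraries of GFP control, 8 of GFP stress, 5 of ZBTB7A control and 5 of ZBTB7A stress, grouped by the stress label of each sample, since another label names the stress protocol for all 23. The viral promoter limits the transgene to cells that use it, mainly astrocytes, while the RNA is that of the whole dissected tissue. The labels do not say that each library came from a separate mouse, so p-values measure the spread between these samples, which may be partly technical.

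Neuronal firing opens calcium channels and activates kinases that act on CREB, SRF and MEF2, factors already present in the cell, and these switch on genes such as Fos, Egr1, Npas4 and Arc. Most of the transcripts are short-lived, so their level in dissected tissue reflects the last minutes to hours before collection, and a second tier of products, including Bdnf, Nptx2 and Homer1a, follows later. Several members, such as Dusp1 and Dusp6, remove the kinase signal that induced them, and others, such as Atf3 and Junb, also respond to injury and inflammation in glia.

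Recovered read totals were 12.5 to 51.9 M per library, and 1 read was worth 0.457 to 1.75 normalized counts. Zbtb7a itself stood at 3834 ± 629 normalized counts (mean ± SD) in the 5 GFP control libraries, 3934 ± 251 in the 8 of GFP stress, 3716 ± 247 in the 5 labelled ZBTB7A control and 3744 ± 173 in the 5 labelled ZBTB7A stress, so its row did not set the ZBTB7A labels apart. Whether transcript from the vector was counted in that row is not given in the sources used here, and the libraries are called ZBTB7A-labelled below. All 10 excitatory cortical neuron markers were found, with summed normalized counts of 56811 to 136626 in GFP control, 101593 to 133126 in GFP stress, 52242 to 110908 in ZBTB7A-labelled control and 68295 to 99467 in ZBTB7A-labelled stress, and none was at 0 in all libraries. The 12 striatal neuron markers, which define a neighbouring region, summed to 26282 to 71566, 7431 to 56416, 15569 to 149282 and 36832 to 97938 in the same order. GFP stress 12, 20, 21 and 5 and ZBTB7A-labelled control 6 lay farthest from the median in striatal level, and each of the 4 pairwise comparisons is also given without them. In bulk tissue, fewer cells of a type and less RNA per cell cannot be told apart.

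None of the 43 members passed an adjusted p under 0.05 in any of the 7 comparisons (limma on log2 of the normalized count plus 1, Benjamini-Hochberg over 16385 genes). The background was the same, with 0% of all genes called in each comparison by limma and by edgeR's quasi-likelihood test, and DESeq2 called no member either. At an unadjusted p under 0.05, members numbered 2 for ZBTB7A-labelled against GFP without stress, where 1.73% of all genes reached that level, and 8 with stress, against 16.1%. They numbered 5 for stress under GFP, against 11.2%, and 0 for stress in the ZBTB7A-labelled groups, against 1.66%. For the virus label averaged over stress there were 3 members against 6.07%, for stress averaged over virus 1 against 3.32%, and for the interaction 2 against 7.42%. No member had groups that did not overlap in any of the 4 pairwise comparisons, where 0.226%, 1%, 0.372% and 0.421% of all genes had, in the order virus without stress, virus with stress, stress under GFP and stress under ZBTB7A. The members are therefore described by their levels, their spread between libraries and the way they moved together, and a p that misses the threshold does not show that groups were alike.

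Members varied between libraries of the same group more than the typical gene. The within-group SD on the log2 scale had a median of 0.36 over the 43 members and 0.19 over all 16385 genes tested. It reached 0.80 for Nr4a2, 0.78 for Atf3 and 0.68 for Egr2, stood at 0.49 for Fos, and was as small as 0.11 for Plk2 and 0.16 for Gadd45b. The highest of the 23 libraries was 10.1 times the lowest for Atf3, 9.11 times for Nr4a2, 5.46 times for Bdnf, 5.06 times for Egr2 and 1.46 times for Plk2. Libraries also differed in how many members they held high at once. GFP control 10 held 19 of the 43 members at 1 of their 5 highest values of 23, and GFP stress 5 had 18, while GFP control 2 and GFP stress 22 each held 22 members at 1 of their 5 lowest. Values are given below in the order of library numbers, which are 1, 2, 10, 11 and 19 for GFP control, 6, 14, 15, 23 and 24 for ZBTB7A-labelled control and 7, 9, 17, 25 and 26 for ZBTB7A-labelled stress. For the 8 GFP stress libraries (3, 4, 5, 12, 13, 20, 21 and 22) the lowest, median and highest stand in their place. Libraries with many high members and libraries with many low members thus occurred in the same group.

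**Figure D1:**
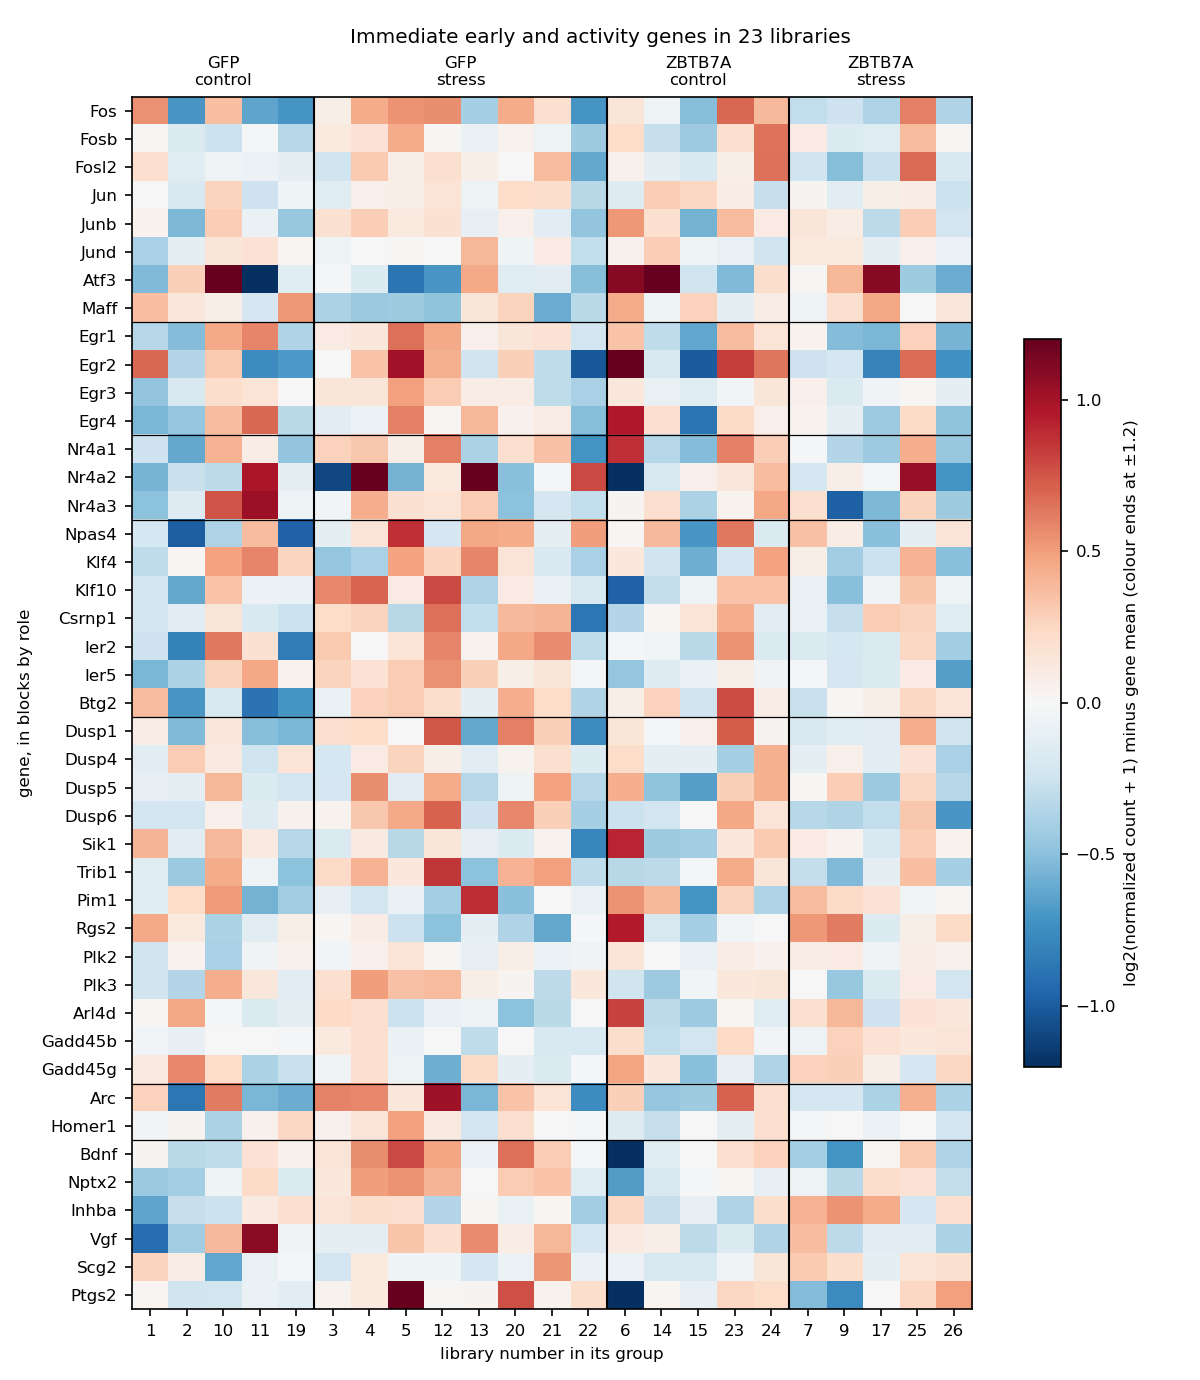
Each row is 1 of the 43 members, ordered by role, and each column 1 of the 23 libraries, ordered by group; colour gives log2 of the normalized count plus 1 minus the member's mean over all libraries. Vertical stripes of high and low members run through single libraries, such as GFP stress 22 with 22 members at 1 of their 5 lowest values, rather than through whole groups.

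Fos and Junb are AP-1 subunits that pair to bind DNA, and Fosb encodes the Fos paralog whose short form is stable after repeated stimulation. Fos had normalized counts of 1075, 453, 947, 474 and 452 in GFP control, a lowest value of 449, a median of 922 and a highest of 1086 in GFP stress, 815, 704, 517, 1185 and 962 in ZBTB7A-labelled control and 601, 618, 567, 1123 and 573 in ZBTB7A-labelled stress. A pair of GFP control libraries, 1 of 5 ZBTB7A-labelled stress libraries, 4 of 5 ZBTB7A-labelled control libraries and 6 of 8 GFP stress libraries stood above 700 normalized counts. The highest of all was ZBTB7A-labelled control 23, and all 4 groups overlapped. The log2 difference of Fos was 0.37 ± 0.26 (SE) for stress under GFP, 0.35 ± 0.29 for the virus label without stress and -0.63 ± 0.39 for the interaction, with adjusted p of 0.597, 1.00 and 0.70 (limma). Junb had normalized counts of 2305, 1543, 2756, 2124 and 1638 in GFP control, a lowest value of 1614, a median of 2386 and a highest of 2748 in GFP stress, 3228, 2559.8, 1513, 2922 and 2406 in ZBTB7A-labelled control and 2480, 2393, 1804, 2752 and 1918 in ZBTB7A-labelled stress. Junb was lowest in ZBTB7A-labelled control 15 and highest in ZBTB7A-labelled control 6, so that 1 group held both ends of its range.

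Fosb had normalized counts of 429, 376, 353, 417 and 334 in GFP control, a lowest value of 315, a median of 431 and a highest of 578 in GFP stress, 495, 349, 313, 486 and 668 in ZBTB7A-labelled control and 454, 377, 382, 551 and 430.5 in ZBTB7A-labelled stress. The groups overlapped throughout, and the highest library was ZBTB7A-labelled control 24. Maff, a small MAF protein that lacks an activation domain, had the smallest p of the AP-1 group for stress under GFP, with 42.8, 36.3, 34.6, 28.6 and 48.0 in GFP control, a lowest value of 21.5, a median of 24.7 and a highest of 40.0 in GFP stress, 45.5, 31.6, 40.2, 30.6 and 35.2 in ZBTB7A-labelled control and 31.6, 37.9, 45.9, 32.9 and 36.5 in ZBTB7A-labelled stress. Maff was thus low in most of the GFP stress libraries, with overlap from GFP stress 13 and 20. Its log2 difference was -0.46 ± 0.16 for stress under GFP (adjusted p = 0.358, limma) and 0.42 ± 0.16 for the virus label with stress (adjusted p = 0.247). Of the other members of this group, Jun spanned 1199 to 1853, Jund 2750 to 4743, Fosl2 606 to 1491 and Atf3 13.1 to 133 normalized counts over the 23 libraries. Fosl2 and the JUN proteins are further AP-1 subunits, and Atf3 is a stress-induced bZIP repressor.

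Atf3 and Fos had a correlation of their deviations from group means of -0.03 over 23 libraries. The deviations of Atf3 went with the level of 9 reactive astrocyte markers, the mean of their centred log2 values, with r = 0.91. They went with the level of the general astrocyte markers almost as closely, with r = 0.90, and with the microglial level with r = 0.84. The share of all genes with such values is not given here. Atf3 was highest in GFP control 10 at 133, ZBTB7A-labelled control 14 at 116 and ZBTB7A-labelled stress 17 and control 6, both at 90.9 normalized counts. The reactive astrocyte level was 2.04, 1.51, 1.87 and 0.93 in these libraries, in the same order. The summed counts of that list ranged over 1680 to 14454 in GFP control, 2231 to 4567 in GFP stress, 2889.9 to 9263 in ZBTB7A-labelled control and 3207 to 11502 in ZBTB7A-labelled stress. The part of these cells in the Atf3 values was not tested.

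**Figure D2:**
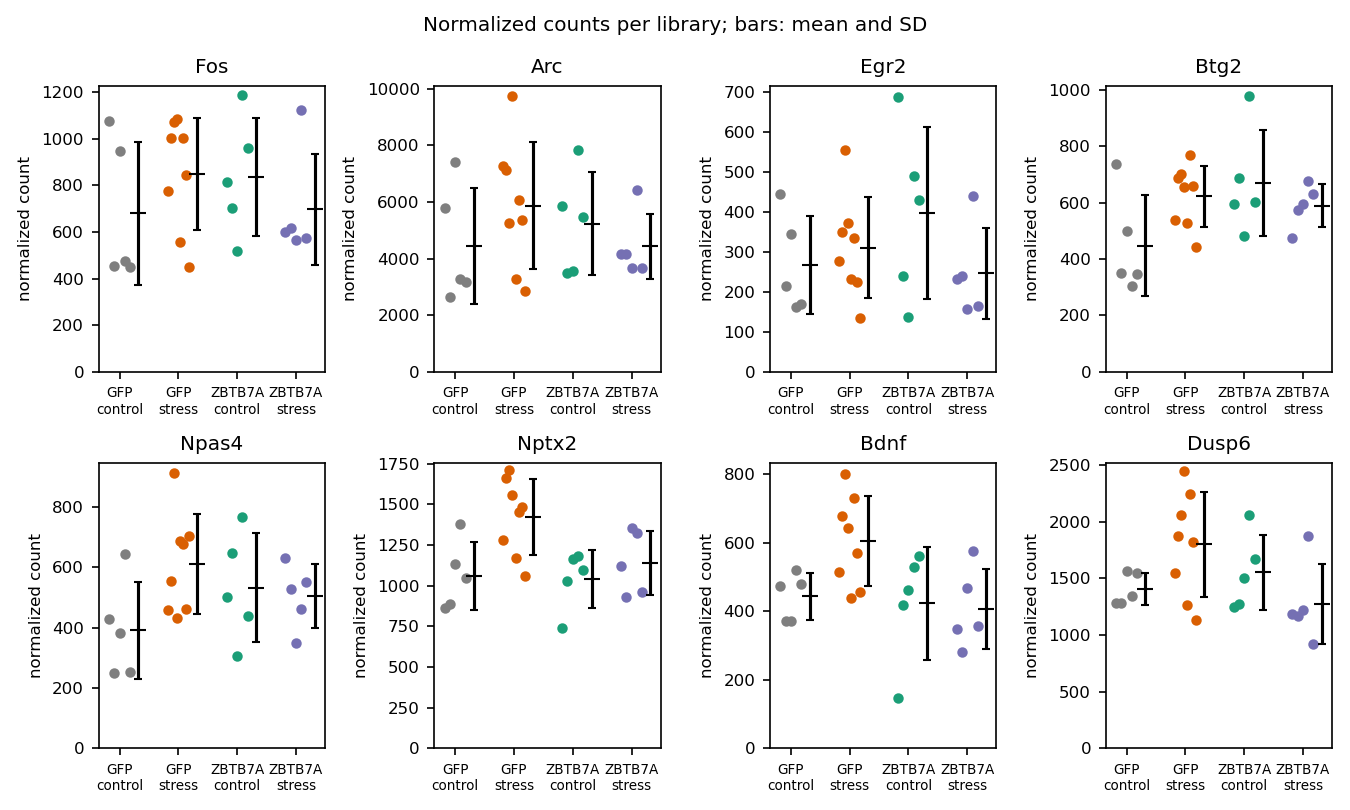
Normalized counts of single members (vertical axes, linear and starting at 0) by group, 1 point per library, with bars for the group mean and SD. The groups overlap in every panel, and for Fos, Egr2 and Arc 1 ZBTB7A-labelled stress library, number 25, stands above the other 4.

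The EGR factors are zinc-finger proteins induced by SRF-dependent signalling and bind the same GC-rich site. Egr1 had normalized counts of 8849.5, 7819.7, 15396, 16848 and 8769.5 in GFP control, a lowest value of 9627, a median of 12408 and a highest of 17819.5 in GFP stress, 14290.2, 9108, 7313, 14667 and 12603 in ZBTB7A-labelled control and 11535, 7850.4, 7693, 13648 and 7645 in ZBTB7A-labelled stress. GFP stress libraries were mostly high and ZBTB7A-labelled stress libraries mostly low, with GFP control spread over nearly the whole range. Egr2 had normalized counts of 444, 215, 344, 163 and 171 in GFP control, a lowest value of 136, a median of 306 and a highest of 555 in GFP stress, 687, 241, 137, 489 and 430.2 in ZBTB7A-labelled control and 232, 239, 158, 439 and 166 in ZBTB7A-labelled stress. The highest Egr2 value, in ZBTB7A-labelled control 6, and 1 of the lowest, in ZBTB7A-labelled control 15, were in the same group. Egr4 had normalized counts of 895, 951, 1692, 2114 and 1044 in GFP control, a lowest value of 921, a median of 1345 and a highest of 1991 in GFP stress, 2551, 1502, 712, 1536 and 1368 in ZBTB7A-labelled control and 1352, 1209.5, 968, 1534 and 937 in ZBTB7A-labelled stress. Egr4 was likewise highest in ZBTB7A-labelled control 6 and lowest in control 15. Egr3 spanned 1129.7 to 2213 normalized counts over the 23 libraries.

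For stress under GFP the 4 EGR genes had log2 differences of 0.11 to 0.23, and for the virus label with stress -0.45 to -0.12. The most negative of the latter was Egr1 at -0.45 ± 0.21 (unadjusted p = 0.0446, adjusted p = 0.303, limma). Among themselves the EGR genes moved together, with a median correlation of deviations from group means of 0.63 over 6 pairs and 0.84 between Egr1 and Egr4.

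Nr4a1, Nr4a2 and Nr4a3 are orphan nuclear receptors that rise with calcium and cAMP signals. Nr4a1 had normalized counts of 4122, 3200.5, 6559, 5211 and 3525 in GFP control, a lowest value of 2989, a median of 5779 and a highest of 7464 in GFP stress, 9024, 3863, 3409, 7459 and 6036 in ZBTB7A-labelled control and 4849, 3851, 3629.6, 6621 and 3576 in ZBTB7A-labelled stress. Nr4a1 was highest in ZBTB7A-labelled control 6, and the 4 groups overlapped. Nr4a2, which also marks a class of deep-layer cortical and claustral neurons, spanned 201 to 1832 normalized counts, with 1832 and 1806 in GFP stress 13 and 4, 1447 in ZBTB7A-labelled stress 25 and 1379 in GFP control 11. High Nr4a2 libraries thus came from 3 groups, and its correlation with Fos in deviations from group means was -0.13, against 0.74 for Nr4a1 and 0.19 for Nr4a3. Nr4a3 spanned 366 to 1471 normalized counts. The log2 differences of the 3 genes lay between -0.21 and 0.26 for stress under GFP and between -0.31 and -0.15 for the virus label with stress.

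Npas4 is a factor induced in neurons by calcium entry and little by other signals, and Btg2 is an antiproliferative cofactor of mRNA deadenylation. Npas4 had normalized counts of 428, 249, 384, 643 and 253 in GFP control, a lowest value of 431, a median of 615 and a highest of 913 in GFP stress, 500.1, 649, 305, 767 and 439 in ZBTB7A-labelled control and 632, 527, 349, 461 and 551 in ZBTB7A-labelled stress. All 8 GFP stress libraries lay above 4 of the 5 GFP control libraries, and GFP control 11 was inside the GFP stress range. Btg2 had normalized counts of 739, 349, 498, 306 and 347 in GFP control, a lowest value of 441, a median of 658 and a highest of 769.6 in GFP stress, 596, 689, 482, 979 and 603 in ZBTB7A-labelled control and 473, 573, 597, 677 and 631 in ZBTB7A-labelled stress. In Btg2, 3 of the 5 GFP control libraries were below every library of the other groups, and GFP control 1 was among the highest. Ier2 and Ier5, nuclear proteins of unclear mechanism induced by growth factors and stress, spanned 185 to 514 and 1576 to 3636 normalized counts. Ier5 had normalized counts of 1700.3, 1912, 2999, 3431 and 2558 in GFP control, a lowest value of 2467, a median of 2901 and a highest of 3636 in GFP stress, 1801, 2229, 2354, 2615 and 2418 in ZBTB7A-labelled control and 2454, 2164, 2215, 2659 and 1576 in ZBTB7A-labelled stress. Of the 5 ZBTB7A-labelled stress libraries, 4 lay below every GFP stress library and 1 inside their range. Klf4 and Klf10, zinc-finger factors, spanned 86.4 to 196 and 437 to 1478, and Csrnp1, a serum-induced nuclear protein, 165 to 478.

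Dusp1 and Dusp6 are phosphatases that switch off MAP kinases, Dusp1 in the nucleus and Dusp6 in the cytoplasm. Dusp1 had normalized counts of 1001, 649.6, 1033, 657 and 642 in GFP control, a lowest value of 557, a median of 1082 and a highest of 1576 in GFP stress, 1040.3, 932, 979.7, 1552 and 963 in ZBTB7A-labelled control and 825, 850.3, 862, 1269.6 and 796 in ZBTB7A-labelled stress. Low and high Dusp1 libraries occurred side by side within both GFP groups, and all groups overlapped. Dusp6 had normalized counts of 1278, 1279, 1567, 1346 and 1549 in GFP control, a lowest value of 1134, a median of 1850.3 and a highest of 2445 in GFP stress, 1250.2, 1276, 1501, 2061 and 1666 in ZBTB7A-labelled control and 1182, 1170, 1224, 1871 and 923 in ZBTB7A-labelled stress. Dusp6 was high in 5 of the 8 GFP stress libraries and in 1 library of each ZBTB7A-labelled group. Plk2 had normalized counts of 4419, 5383, 3992, 5071 and 5437 in GFP control, a lowest value of 4894, a median of 5207 and a highest of 5806 in GFP stress, 5826, 5249, 4931, 5568 and 5436 in ZBTB7A-labelled control and 5569.9, 5583, 5092, 5558 and 5426 in ZBTB7A-labelled stress. Plk2, a polo-like kinase of synaptic scaling, had the smallest spread of the 43 members, and GFP control 10 and 1 were its lowest libraries.

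The other enzymes and brakes are given by their range over the 23 libraries. Dusp4 spanned 186 to 330.4 and Dusp5 71.5 to 168 normalized counts, both nuclear MAP kinase phosphatases, and Sik1, a salt-inducible kinase that restrains CREB coactivators, 327 to 1065. Trib1, a pseudokinase, spanned 498 to 1307, the kinase Pim1 43.2 to 134 and the polo-like kinase Plk3 277 to 536. The growth arrest proteins Gadd45b and Gadd45g spanned 215 to 321 and 182 to 409, and Arl4d, a small GTPase, 386 to 953. Rgs2, which shortens G protein signalling, spanned 722 to 2147 and was highest in ZBTB7A-labelled control 6.

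Arc encodes a synaptic protein that removes AMPA receptors, and Homer1 encodes postsynaptic scaffolds of which the short form is activity-induced; the table does not separate the forms. Arc had normalized counts of 5800.4, 2627, 7395, 3283 and 3179 in GFP control, a lowest value of 2844, a median of 5714 and a highest of 9724 in GFP stress, 5843, 3476, 3563, 7829.9 and 5461 in ZBTB7A-labelled control and 4159, 4176, 3681, 6432 and 3677 in ZBTB7A-labelled stress. In GFP control, libraries 1 and 10 held Arc far above the other three, and GFP stress held both the highest library of all and 2 libraries near the lowest. Homer1 had normalized counts of 2798, 2918, 2201, 2964 and 3395 in GFP control, a lowest value of 2435, a median of 3023 and a highest of 4019.7 in GFP stress, 2572, 2364, 2870.5, 2641 and 3266 in ZBTB7A-labelled control and 2831, 2869, 2719, 2845 and 2444 in ZBTB7A-labelled stress. The Homer1 ranges of the 4 groups overlapped, and its highest library was GFP stress 5.

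Bdnf is a neurotrophin, Nptx2 a pentraxin that clusters AMPA receptors on interneurons, and Vgf a precursor of secreted peptides. Bdnf had normalized counts of 474, 370.4, 373, 522 and 479.7 in GFP control, a lowest value of 439.6, a median of 607 and a highest of 802 in GFP stress, 147, 418, 463, 529 and 562 in ZBTB7A-labelled control and 348, 282, 469, 575 and 358 in ZBTB7A-labelled stress. Bdnf was high in 5 of the 8 GFP stress libraries and lowest in ZBTB7A-labelled control 6. Nptx2 had normalized counts of 865, 885, 1134, 1379 and 1049.8 in GFP control, a lowest value of 1060, a median of 1469 and a highest of 1709.6 in GFP stress, 739.6, 1031, 1163, 1182 and 1099.7 in ZBTB7A-labelled control and 1124, 933, 1355, 1326 and 964 in ZBTB7A-labelled stress. Nptx2 was above every GFP control library in 5 of the 8 GFP stress libraries. Vgf had normalized counts of 4844, 6848, 11929.9, 19378 and 8892 in GFP control, a lowest value of 7902, a median of 10097 and a highest of 13517 in GFP stress, 9825, 9671, 7346, 8161 and 7124 in ZBTB7A-labelled control and 11786, 7363, 8294, 8383 and 7008 in ZBTB7A-labelled stress. Vgf was most variable in GFP control, whose libraries held both its lowest and its highest value.

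Inhba had normalized counts of 49.1, 62.9, 64.0, 82.7 and 87.5 in GFP control, a lowest value of 57.1, a median of 77.4 and a highest of 88.7 in GFP stress, 90.9, 63.2, 71.5, 59.5 and 88.8 in ZBTB7A-labelled control and 103, 112, 105, 66.7 and 87.6 in ZBTB7A-labelled stress. Inhba, the activin A subunit, was above 100 normalized counts only in 3 of the 5 ZBTB7A-labelled stress libraries. Scg2 had normalized counts of 6863, 6059.6, 3689.7, 5356 and 5609 in GFP control, a lowest value of 4857, a median of 5453 and a highest of 8238 in GFP stress, 5439, 4987, 4976, 5546 and 6302 in ZBTB7A-labelled control and 7086, 6599.6, 5239, 6393 and 6447 in ZBTB7A-labelled stress. Scg2, the secretoneurin precursor, was highest in GFP stress 21 and lowest in GFP control 10. Ptgs2, the inducible cyclooxygenase, spanned 64.7 to 481 and was lowest in ZBTB7A-labelled control 6 and highest in GFP stress 5.

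Stress under GFP asked whether subthreshold defeat left a trace in these genes from day 21 to day 28, with behavioural tests in between. Of the 43 members 33 had a positive difference, against 48.4% of all genes tested, and the median log2 difference was 0.14, against -0.01 over all genes. The members of smallest p were Nptx2 at 0.42 ± 0.14, a ratio of 1.34 with a 95% interval of 1.10 to 1.64, Npas4 at 0.69 ± 0.24, a ratio of 1.61 with a 95% interval of 1.14 to 2.27, and Btg2 at 0.53 ± 0.19, a ratio of 1.45 with a 95% interval of 1.11 to 1.89. Their adjusted p were 0.326, 0.345 and 0.345 (limma), and a two-sided exact permutation test of each gene alone gave 0.0186, 0.0249 and 0.0435, for genes picked by their small p. Ier2 stood at 0.44 ± 0.21, Bdnf at 0.43 ± 0.25, Arc at 0.41 ± 0.29 and Homer1 at 0.11 ± 0.10.

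Tissue marker levels stood apart in this comparison. The striatal level was 0.43 ± 0.62 (SD, n = 5) in GFP control and -0.90 ± 1.37 (n = 8) in GFP stress, the excitatory cortical level -0.06 ± 0.32 and 0.21 ± 0.10, and the level of 8 choroid plexus and ependymal markers 1.41 ± 1.10 and -0.76 ± 0.66. Of the 10 excitatory markers, 9 had a log2 difference above 0, and 1 went the other way, at -0.34. The oligodendrocyte level was 0.33 ± 0.61 and -0.38 ± 0.70, with summed counts of 86133 to 248978 and 42227 to 153955, and all 7 of its markers were below 0 at an unadjusted p under 0.05. Reactive astrocyte markers were below 0 in 9 of 9, of which 1 reached that level. The part of oligodendrocytes, choroid plexus and reactive cells in the members' differences was not tested separately. With the striatal level as a covariate Npas4 stood at 0.77, Btg2 at 0.34, Nptx2 at 0.22, Fos at 0.10 and Bdnf at 0.05. Without the 5 libraries far in striatal level, 2 members, Maff and Npas4, were at an unadjusted p under 0.05, against 5.55% of all genes. The values were then 0.69 for Npas4, 0.35 for Btg2 and 0.29 for Nptx2, and the median of the members was 0.05. With the covariate, Npas4 was thus as large as in the full data, and the difference of Bdnf was near 0. Npas4 was also as large without those libraries. Bdnf was at an unadjusted p under 0.05 (limma) neither without them nor in the full data. With striatal, endothelial and choroid levels together as covariates, Npas4 stood at 0.68 and Bdnf, its sign turned, at -0.41. With array weights, which give far libraries less weight, 4 members passed, Ier2, Npas4, Btg2 and Nptx2 (limma), among 668 genes in all. Library numbers run through the groups 3 times, and within the runs the difference of Npas4 was 0.91, 0.13 and 1.25, that of Btg2 0.33, 0.59 and 0.81 and that of Nptx2 0.81, 0.11 and 0.33, on 1 to 3 libraries a group.

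The virus label with stress compared ZBTB7A-labelled stress with GFP stress. Of the 43 members 30 had a negative difference and 13 a positive one, against 51.4% of all genes above 0, with a median of -0.14 for the members and 0.01 for all genes. The members of smallest p were Ier5 at -0.41 ± 0.15, a ratio of 0.751 with a 95% interval of 0.608 to 0.928, Dusp6 at -0.49 ± 0.18, a ratio of 0.711 with a 95% interval of 0.552 to 0.916, and Maff at 0.42 ± 0.16, a ratio of 1.34 with a 95% interval of 1.06 to 1.70. Their adjusted p were 0.220, 0.224 and 0.247 (limma), and the two-sided exact permutation p of each gene alone was 0.00622, 0.0482 and 0.0264. Bdnf stood at -0.59 ± 0.25, Nptx2 at -0.32 ± 0.14, Plk3 at -0.32 ± 0.14 and Rgs2 at 0.48 ± 0.19, none past the test.

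This comparison shares the GFP stress libraries with that of stress under GFP, and 4 of those 8 libraries (5, 12, 20 and 21) held the lowest striatal levels of all, while GFP stress 3, 13 and 22 stood at 0.34, 0.70 and 0.47. The striatal level was 0.92 ± 0.59 in ZBTB7A-labelled stress (SD, n = 5) and the excitatory level -0.15 ± 0.22. Of the 10 excitatory markers, 9 had a log2 difference below 0, and 1 went the other way, at 0.61. All 12 striatal markers were above 0 at an unadjusted p under 0.05, and oligodendrocyte and reactive astrocyte markers were above 0 in 7 of 7 and 9 of 9, of which 0 and 4 reached that level. The part of the oligodendrocyte and reactive astrocyte lists in the members' differences was not tested. With the striatal level as a covariate, Bdnf stood at -0.07, Dusp6 at -0.12, Nptx2 at -0.04 and Rgs2 at 0.02, while Ier5 stood at -0.30, Maff at 0.37 and Egr1 at -0.38. With array weights 5 members passed, Rgs2, Ier5, Bdnf, Dusp6 and Nptx2 (limma), among 2287 genes in all. Without the 5 far libraries the median of the members was 0.01, and 3, Bdnf, Maff and Plk3, were at an unadjusted p under 0.05, against 6.19% of all genes. Within the number runs the members' medians were -0.24, -0.24 and 0.08.

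Without stress, no member passed between the ZBTB7A-labelled libraries and GFP control. Positive differences were held by 29 of 43 members, against 44.7% of all genes, with medians of 0.04 and -0.01. Within the number runs the members' medians were 0.28, -0.19 and 0.32. Without the 5 far libraries the median was 0.09, and 1 member, Btg2, was at an unadjusted p under 0.05, against 7.26% of all genes. Choroid plexus and ependymal markers were below 0 in 7 of 8, of which 6 were at an unadjusted p under 0.05, with a median of -1.65 and summed counts of 962 to 9290.4 in GFP control and 465 to 2042 in ZBTB7A-labelled control. Striatal markers were below 0 in 12 of 12, inhibitory neuron markers in 7 of 7 and oligodendrocyte markers in 7 of 7, none at that level, and the part of these cells in the members' differences was not tested. Btg2 had the smallest p, with a log2 difference of 0.62 ± 0.21, a ratio of 1.54 with a 95% interval of 1.14 to 2.07 (adjusted p = 1.00, limma; exact permutation p = 0.0794). Next came Plk2 at 0.16 ± 0.07 and Dusp1 at 0.46 ± 0.24, with exact permutation p of 0.159 and 0.103. Within the runs the Btg2 difference was 0.23, 0.56 and 1.14.

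Stress in the ZBTB7A-labelled groups gave 0 members at an unadjusted p under 0.05, a count that rested on ZBTB7A-labelled control 6. Without that library Arl4d, Inhba and Rgs2 reached that level, and the share of all genes went from 1.66% to 9.7%. Without the 5 far libraries the same 3 members did, against 11% of all genes, and the members' median was -0.05, against -0.04 in full. The secreted products were above 0 in 6 of 6 and the EGR genes below 0 in 4 of 4, without a member past the test. The members of smallest p were Inhba at 0.34 ± 0.18, Scg2 at 0.22 ± 0.14 and Dusp6 at -0.30 ± 0.20, with exact permutation p of 0.0952, 0.0714 and 0.206. Of the 43 members 17 were above 0, against 52.5% of all genes. Egr2 stood at -0.58 ± 0.41, with a 95% interval of its ratio from 0.373 to 1.2. Leaving out 1 library moved it over -0.91 to -0.33, the first without ZBTB7A-labelled control 15 and the second without control 6. Striatal markers were above 0 in 12 of 12 here and oligodendrocyte markers in 7 of 7, with 0 at an unadjusted p under 0.05 in either list, and their part in the members' differences was not tested. Within the number runs the members' medians were -0.19, 0.06 and -0.18.

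The interaction asked whether the stress difference itself depended on the virus label. Of the 43 members 32 were below 0, against 52.4% of all genes above 0, with a median of -0.20 for the members and 0.01 for all genes. Btg2 stood at -0.69 ± 0.28, Dusp6 at -0.62 ± 0.26 and Npas4 at -0.72 ± 0.36, with adjusted p of 0.668, 0.668 and 0.670 (limma). Arc stood at -0.62 ± 0.43, Egr2 at -0.80 ± 0.55 and Nr4a1 at -0.61 ± 0.37, each with a 95% interval that held 0. With the striatal level as a covariate Npas4 stood at -0.85 and Fos at -0.19, and without the 5 far libraries the members' median was -0.13. With array weights 7 of the 43 members passed (limma), against 2068 of all 16385 genes tested. The 7 were Bdnf, Dusp6, Trib1, Ier2, Btg2, Dusp1 and Nptx2. Averaged over stress, the virus label gave Ier5 -0.26 ± 0.11, Plk2 0.10 ± 0.05 and Bdnf -0.39 ± 0.18, and averaged over virus, stress gave Nptx2 0.28 ± 0.10, Inhba 0.24 ± 0.12 and Npas4 0.33 ± 0.18, the 3 members of smallest p in each. Without ZBTB7A-labelled control 6 the averaged virus difference of Bdnf was -0.21, and no member was at an unadjusted p under 0.05 for that average. In these averages 23 and 30 of 43 members were above 0, against 49.3% and 48.8% of all genes.

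**Figure D3:**
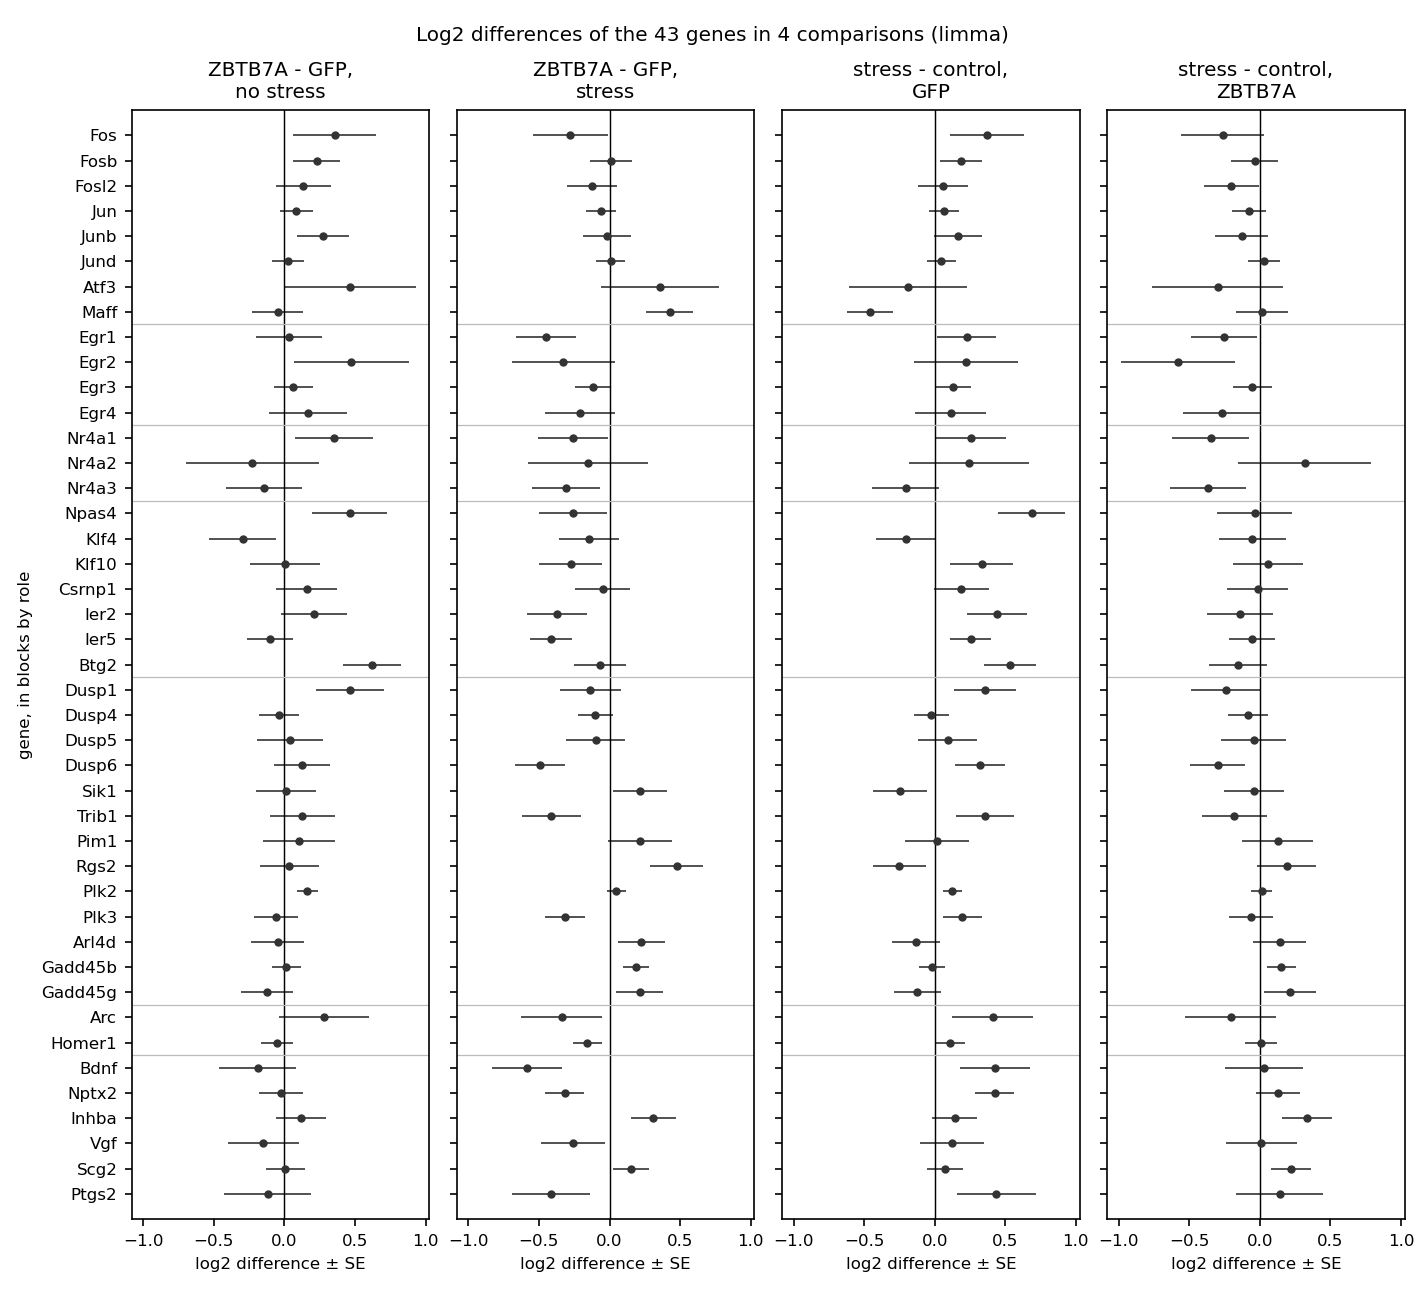
Log2 differences of the 43 members (vertical positions, by role) with 1 SE on either side as bars for the 4 pairwise comparisons; the line at 0 marks equal groups. Under GFP, 33 members lie above 0 for stress, and 30 lie below 0 for the virus label with stress, and no member passed the test.

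Fos, Arc, Egr2, Dusp1 and Btg2 moved together from library to library within groups. Over 23 libraries, deviations from the group means correlated with those of Fos at 0.89 for Arc, 0.86 for Egr2, 0.85 for Dusp1 and 0.85 for Btg2, which were the 4 genes most like Fos (Entrez 14281) among 13415 genes with a mean of 50 or more. The fifth was Arl5b, a small GTPase outside the list, at 0.79, followed by Emcn, an endothelial sialomucin, at 0.78, and Junb, Nr4a1 and Trib1 stood at 0.77, 0.74 and 0.73. Of the 15 genes most like Fos, 8 were members. In all, 16 of the other 42 members had r above 0.5 with Fos, where 1.76% of all tested genes did, and 10 members were below 0. The 903 pairs of members had a median r of 0.16 with 17.7% of pairs above 0.5, against 7.87% over all pairs of tested genes. These correlations share libraries, dissections and size factors and are given as descriptions.

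The upstream sequences of 6 members are shown because CREB binds the cAMP response element TGACGTCA, and each of the 6 windows holds at least its core TGACG. The 250 bases before the RefSeq start on GRCm38.p6 were available here for 33 of the 43 members. They lie at chr12:85473640-85473889 (plus strand) for Fos, chr8:84978749-84978998 (minus) for Junb, chr15:101266596-101266845 (plus) for Nr4a1, chr17:26508473-26508722 (minus) for Dusp1, chr1:134079156-134079405 (minus) for Btg2 and chr19:4989972-4990221 (minus) for Npas4, whose relation with Fos, given below, did not pass. Each is written 5′ to 3′ toward the gene, with capitals for the core, or the full element, on either strand.
Fos: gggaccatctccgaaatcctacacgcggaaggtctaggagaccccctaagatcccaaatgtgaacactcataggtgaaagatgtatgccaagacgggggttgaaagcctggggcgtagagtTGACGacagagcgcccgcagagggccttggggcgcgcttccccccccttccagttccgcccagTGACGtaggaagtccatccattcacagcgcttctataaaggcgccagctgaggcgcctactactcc
Junb: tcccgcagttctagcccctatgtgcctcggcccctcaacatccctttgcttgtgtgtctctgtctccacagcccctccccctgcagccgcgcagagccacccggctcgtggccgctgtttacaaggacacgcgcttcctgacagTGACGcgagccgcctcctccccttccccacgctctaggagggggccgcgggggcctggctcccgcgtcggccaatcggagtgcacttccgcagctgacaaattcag
Nr4a1: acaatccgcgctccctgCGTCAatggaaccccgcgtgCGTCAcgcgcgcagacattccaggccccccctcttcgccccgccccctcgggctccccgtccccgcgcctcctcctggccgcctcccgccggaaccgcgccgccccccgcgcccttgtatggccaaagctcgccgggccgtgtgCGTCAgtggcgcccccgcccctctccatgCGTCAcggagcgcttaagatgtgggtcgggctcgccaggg
Dusp1: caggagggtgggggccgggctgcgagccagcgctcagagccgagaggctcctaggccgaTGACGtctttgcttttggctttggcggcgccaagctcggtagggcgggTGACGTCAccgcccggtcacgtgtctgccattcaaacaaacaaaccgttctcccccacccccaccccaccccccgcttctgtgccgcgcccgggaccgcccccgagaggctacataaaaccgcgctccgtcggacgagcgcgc
Btg2: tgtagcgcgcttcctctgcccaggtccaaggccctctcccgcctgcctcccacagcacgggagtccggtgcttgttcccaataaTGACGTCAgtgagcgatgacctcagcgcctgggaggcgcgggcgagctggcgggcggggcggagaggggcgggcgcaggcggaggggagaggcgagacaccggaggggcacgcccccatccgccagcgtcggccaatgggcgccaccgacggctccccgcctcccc
Npas4: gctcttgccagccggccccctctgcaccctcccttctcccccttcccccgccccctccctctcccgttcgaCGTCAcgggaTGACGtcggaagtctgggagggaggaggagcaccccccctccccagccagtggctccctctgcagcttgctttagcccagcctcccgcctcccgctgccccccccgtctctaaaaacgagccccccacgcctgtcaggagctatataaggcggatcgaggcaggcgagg

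The core TGACG, read on both strands, was in 23 of 33 members' windows (69.7%), against 19.8% of 27025 genes. Those 27025 are all genes with a window, among them genes that are not among the 16385 past the filter, while every member is. The shares of all genes below are over the same set, and no share was taken over the filtered genes. The full element TGACGTCA, which contains the core, was in 6 of 33 (18.2%), namely Arl4d, Btg2, Dusp1, Maff, Plk2 and Scg2, against 1.77% of all genes. The CArG box of SRF was in 2 (6.06%), Dusp5 and Egr2, against 1.62%. The AP-1 site TGACTCA was in 1, Csrnp1 (3.03%), against 5.16%, and the EGR site GCGTGGGCG in 1, Maff (3.03%), against 0.622%. Of the 6 windows printed, those of Dusp1 and Btg2 held the full element. Dusp6 and Fosl2, with r above 0.5 with Fos, had windows without the core, and a match is a match of letters, not a bound site.

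Arc followed Fos in level across all 23 libraries, whatever the group. The log2 levels had a Pearson r of 0.90 (permutation p = 1.0e-05, adjusted 4.0e-05) and a Spearman rho of 0.87 (permutation p = 1.0e-05, adjusted 5.3e-05), over 16 relations computed, where 1e-05 is the smallest p the permutations can give. Without the 2 libraries farthest from the median of Fos, r was 0.88, and within the number runs it was 0.81, 0.93 and 0.99. Dusp1 had r = 0.86, Egr2 0.85, Btg2 0.81, Junb 0.77, Nr4a1 0.76 and Egr1 0.59. Leaving out the 2 farthest libraries gave 0.82, 0.83, 0.77, 0.70, 0.71 and 0.56 in the same order. Each of these 6 relations passed, with an adjusted p of 0.00777 for Egr1 and smaller values for the rest (permutation tests). The number of recovered reads had r = 0.18 with Fos.

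Npas4, Homer1 and Nptx2 were not shown to follow Fos. Npas4 had a Pearson r of 0.30 (permutation p = 0.159, adjusted 0.231) and a Spearman rho of 0.18 (permutation p = 0.398, adjusted 0.49), and within the runs 0.59, -0.18 and 0.35. Libraries with low Fos could have high Npas4, as GFP stress 22 did with 449 normalized counts of Fos, the lowest of the 23, and 702 of Npas4. Homer1 had a Pearson r of 0.15 (permutation p = 0.502, adjusted 0.564) and a Spearman rho of 0.08 (permutation p = 0.716, adjusted 0.741), and Nptx2 of 0.35 (permutation p = 0.1, adjusted 0.16) and a Spearman rho of 0.37 (permutation p = 0.0825, adjusted 0.132). Bdnf had a Pearson r of 0.36 (permutation p = 0.0909, adjusted 0.16) and a Spearman rho of 0.55 (permutation p = 0.00658, adjusted 0.0117), so the rank relation passed and the linear one did not.

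**Figure D4:**
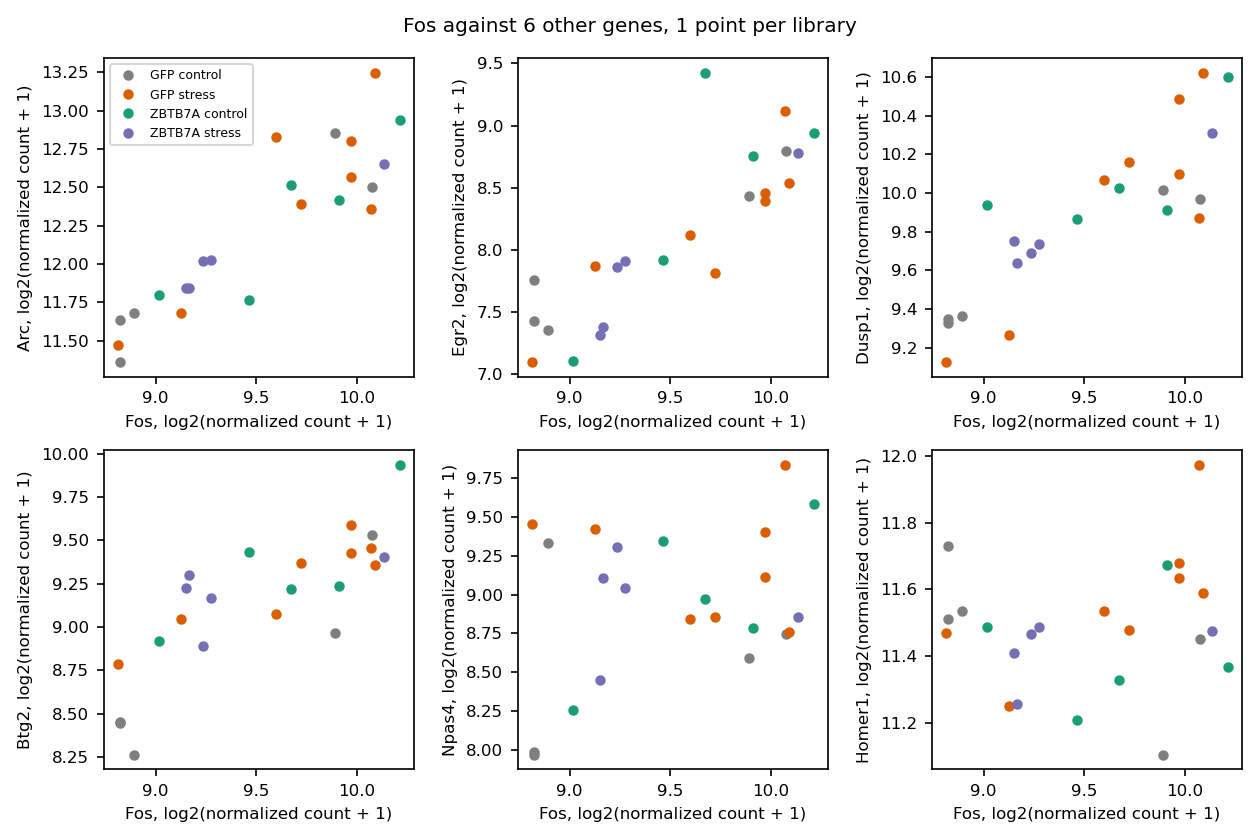
Log2 of the normalized count plus 1 of Arc, Egr2, Dusp1, Btg2, Npas4 and Homer1 (vertical axes) against that of Fos (horizontal axes), 1 point per library, coloured by group. Arc is higher where Fos is higher, with r = 0.90, while the points of Npas4 and Homer1 scatter, with r = 0.30 and 0.15.

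Bdnf, Nptx2 and Ptgs2 moved with the cortical neuron markers, and Rgs2, Arl4d and Gadd45g moved against them. Deviations from group means correlated with those of the excitatory level at 0.81 for Bdnf, 0.80 for Nptx2, 0.70 for Ptgs2, 0.66 for Ier5 and 0.61 for Klf10, the 5 members above 0.5, where 17.9% of all genes were. Rgs2, Arl4d and Gadd45g stood at -0.85, -0.77 and -0.64, the 3 members below -0.5, against 13.8% of all genes. On neither side was the share of members above that of all genes, so these relations do not set the members apart. With the striatal level the same 3 genes stood at 0.76, 0.72 and 0.55, the 3 members above 0.5, where 10.5% of all genes were. The 8 members below -0.5 were Jun, Trib1, Dusp6, Bdnf, Csrnp1, Nptx2, Dusp1 and Ptgs2, from -0.71 for Jun to -0.56 for Ptgs2, against 13.7% of all genes.

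Fos was in neither set, with 0.0034 for the excitatory level and -0.44 for the striatal level. Its log2 level had r = 0.02 with Slc17a7, the vesicular glutamate transporter of cortical neurons, and a Pearson r of -0.52 (permutation p = 0.0118, adjusted 0.0235) and a Spearman rho of -0.59 (permutation p = 0.00339, adjusted 0.0076) with Ppp1r1b, the striatal phosphoprotein DARPP-32, whose values within the runs were -0.62, -0.59 and -0.54. ZBTB7A-labelled control 6 had the highest striatal level of the 23 libraries and an excitatory level of -1.08. That library had the lowest Bdnf, at 147, the lowest Nptx2, at 739.6, and the highest Rgs2, at 2147 normalized counts, together with the highest Egr2 and Nr4a1.

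**Figure D5:**
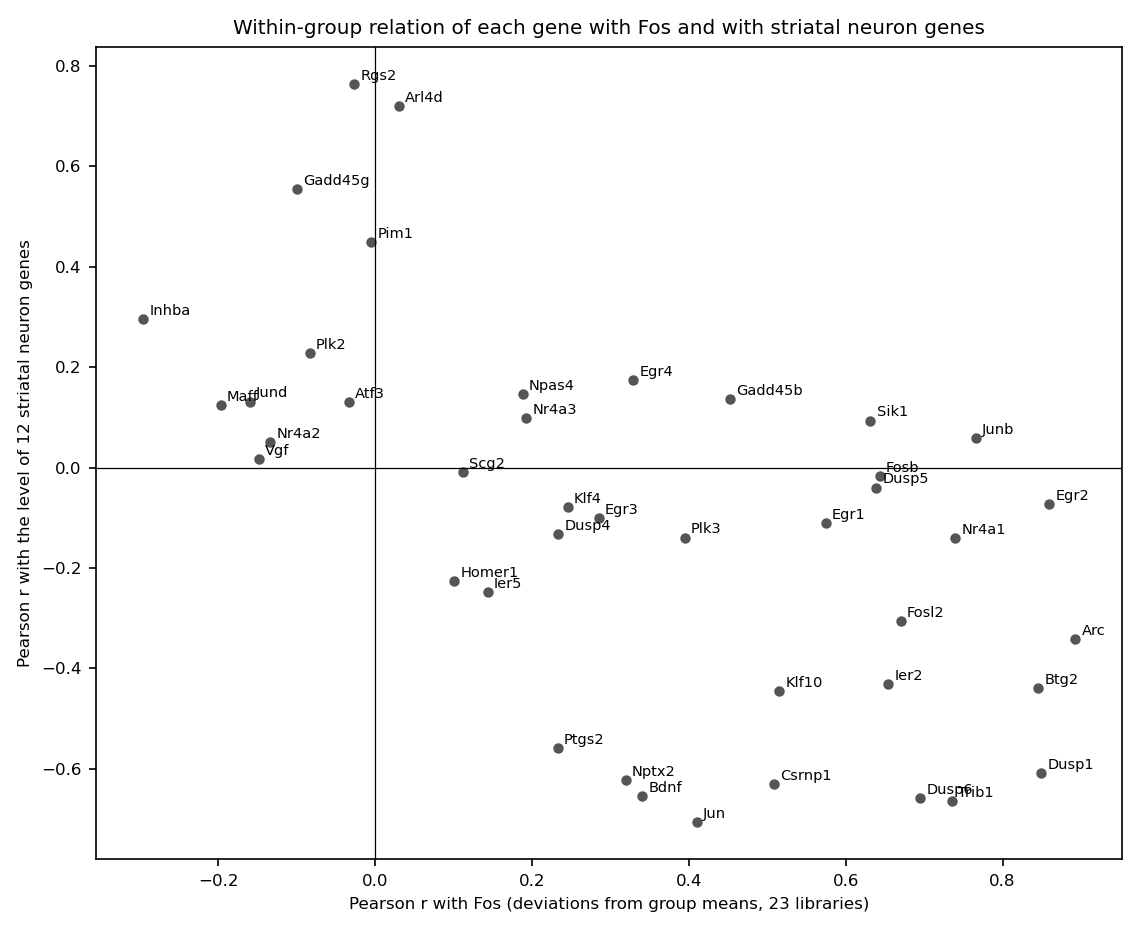
Each point is 1 of the 42 members other than Fos, placed by the correlation of its deviations from group means with those of Fos (horizontal axis) and with those of the striatal level (vertical axis) over 23 libraries. Arc, Egr2, Dusp1 and Btg2 lie at the far right, Rgs2 and Arl4d at the top with r of 0.76 and 0.72, and Jun, Bdnf and Nptx2 near the bottom.

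Of 21 regulators upstream of the members, such as Srf, Creb1, Mef2c and Camk4, 0 passed in any of the 7 comparisons (limma). At an unadjusted p under 0.05 there was 1 for stress under GFP, against 11.2% of all genes. For the virus label with stress there were 4, against 16.1%. In the other pairwise comparisons there were 0, against 1.73% for the virus label without stress and 1.66% for stress in the ZBTB7A-labelled groups. Rps6ka5, the kinase MSK1 that phosphorylates CREB, had the smallest p of the 21 regulators, with -0.56 ± 0.17 for stress under GFP (adjusted p = 0.326, limma), 0.53 ± 0.17 for the virus label with stress (adjusted p = 0.195) and 0.69 ± 0.25 for the interaction. The striatal markers had median log2 differences of -1.30, 1.76 and 2.01 in the same order. The part of tissue content in the differences of the regulators was not tested. Crem, a CREB relative, stood at -0.35 ± 0.12 for the virus label with stress and Ep300, a coactivator, at -0.10 ± 0.05 for stress under GFP. For the virus label without stress the smallest p was that of Mapk3, a MAP kinase, at 0.12 ± 0.10, and for stress in the ZBTB7A-labelled groups the smallest were those of Elk4 at -0.14 ± 0.12 and Camk2a at -0.16 ± 0.14. Camk2a stood at -0.36 ± 0.19 for the interaction, Mef2a at 0.07 ± 0.03 and Crem at -0.22 ± 0.09 for the averaged virus label, and Ep300 at -0.07 ± 0.04 and Rps6ka5 at -0.22 ± 0.13 for averaged stress.

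Of 22 further activity-regulated genes 19 were tested, and again 0 passed in any comparison (limma). Their median log2 difference was 0.09 for stress under GFP and -0.14 for the virus label with stress. The part of tissue content in the differences of these genes was not tested either. Nrn1, a neuritin that promotes neurite growth, and Rheb, the GTPase upstream of mTORC1, stood at -0.71 ± 0.27 and -0.20 ± 0.08 for the virus label with stress, and at -0.45 ± 0.20 and -0.16 ± 0.06 for the averaged label. Pcdh8, a protocadherin of synapses, and Dusp14, a phosphatase, stood at -0.33 ± 0.14 and 0.26 ± 0.11 for stress under GFP. Without stress, Sgk1, a glucocorticoid-induced kinase, stood at -0.37 ± 0.22 and Rheb at -0.13 ± 0.09 for the virus label. Stress in the ZBTB7A-labelled groups gave Ier3 0.26 ± 0.14 and Pcdh8 -0.21 ± 0.15, averaged stress gave Pcdh8 -0.27 ± 0.10 and Ier3 0.24 ± 0.09, and the interaction gave Dusp14 -0.34 ± 0.17 and Sgk1 0.53 ± 0.30.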

How the data were processed

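Polyadenylated RNA (Trizol, then RNeasy Micro) was sequenced from TruSeq RNA v2 libraries, per the labels. Tools named in the submitters' processing notes are DESeq2 2.11.40.6, featureCounts 2.0.1 and HISAT2 2.1.0; which of the named builds, mm9 or mm10, was used is not given in the sources used here, so coordinates come only from RefSeq. The deposited values are a signal, reads divided by 1 size factor per library, with no length correction; 100% were whole reads within a tolerance of 0.02. Removing 428 repeats from 27606 entries left 27178 genes, 958 without a symbol. Genes at 10 or more in at least 5 libraries were fitted as log2(value + 1) in limma 3.58.1 (R 4.3.3; trended, robust; 4 group means, 7 contrasts), two-sided, called at an adjusted p under 0.05. Relations used 100000 permutations. Alternatives included count models of recovered reads in DESeq2 1.42.0 and edgeR 4.0.16, and the fit was tested on simulated data. The covariate for the excitatory level and the fit without 5 far libraries were chosen after seeing the data. Members and lists were chosen with earlier results of these data known. Named genes were 16 fixed members, the 3 members and 2 genes per list of smallest p in each contrast, and the 5 genes most like Fos; other genes were picked out after their values were seen. A gene that the rule takes is not reported here. Figures used matplotlib 3.10.9.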

Additional observations from a re-analysis of the deposited data

Results flagged for a closer look

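Among 25 members described in full or nearly so, over 100 gene and group sets, 9 values stood far from the rest of their group. The measure was the gap to the nearest library over the group's range, taken on normalized counts, not on log2 values. All 9 were the highest value of their group. Chance alone gives about 5% of sets only where values follow a normal distribution, which was not tested for these counts. The 9 values are therefore not read as an excess over chance. ZBTB7A-labelled stress 25 stood apart for Fos at 1123 normalized counts (next 618), Egr2 at 439 (next 239), Arc at 6432 (next 4176) and Dusp1 at 1269.6 (next 862). These 4 genes moved together over all libraries, so these 4 values are not independent of each other. ZBTB7A-labelled control 23 stood apart for Dusp1 at 1552 (next 1040.3) and Ier2 at 480 (next 325). Rgs2 stood at 2147 in ZBTB7A-labelled control 6 (next 1100.2), the library with the highest striatal level. Vgf stood at 11786 in ZBTB7A-labelled stress 7 (next 8383), and Scg2 at 8238 in GFP stress 21 (next 6194).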

How the results depend on the processing

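No paired analysis was possible because the groups share no library number. Of 558 values of 44 single-gene results under settings other than leaving out a library, 542 kept their direction and side of the threshold, and all 1012 did with each library left out. None of the 44 passed in the main fit, so none could lose a pass. A kept result thus means only the same sign and again no pass, whatever its size. With array weights, which give far libraries less weight, genes called came to 2068 for the interaction, 668 for stress under GFP and 2287 for the virus label with stress, with 7, 4 and 5 members among them; the cause was not tested. DESeq2 called 3, 39 and 46 genes in these comparisons, 1 for averaged stress, 1 for stress in the ZBTB7A-labelled groups and 7 for the averaged virus label, and only the groups compared gave 2 for the virus label with stress. With the excitatory level or the number run as a covariate, no gene was called in any comparison (limma). The excitatory covariate took genes at an unadjusted p under 0.05 from 2635 to 870 for the virus label with stress and from 1839 to 956 for stress under GFP. It took them from 284 to 649 for the virus label without stress and from 272 to 464 for stress in the ZBTB7A-labelled groups. Leaving out 1 library gave 0 to 79 genes for the interaction, 79 without ZBTB7A-labelled control 6, and 0 to 3 for the virus label with stress, 3 without GFP stress 13, and no member in any. It also moved differences that did not pass by over 1.5 times, with ranges of 0.25 to 0.62 for Arc, 0.07 to 0.43 for Egr2, 0.25 to 0.56 for Fos, 0.29 to 0.65 for Ier2 and 0.15 to 0.41 for Nr4a1 (stress under GFP), -0.45 to -0.19 for Dusp6 and -0.52 to -0.17 for Nr4a1 (stress under ZBTB7A), and 0.22 to 0.80 for Egr2 and 0.09 to 0.20 for Plk2 (virus label without stress). Signs reversed for Bdnf with 3 tissue levels as covariates (-0.41 for stress under GFP, 0.019 for the virus label with stress), for Trib1 (0.026 with the striatal level, 0.042 with 3 levels, virus label with stress) and for Egr2 without the 5 far libraries (-0.0694, stress under GFP). With Fos, r reversed for Npas4 (-0.18 in run 2), Homer1 (-0.19 in run 2, -0.035 in run 3), Slc17a7 (-0.061 in deviations, -0.15 in run 2), Cldn5 (0.17 in run 1) and recovered reads (-0.30 in run 1). Relations past the adjusted threshold numbered 8 in all libraries, 1 in run 1 and 0 in run 2, which hold 8 and 7 libraries. In run 3, of 8 libraries, their number stayed within 1.5 times of that in all libraries. There r with Fos ran from 0.86 for Btg2 to 0.99 for Arc among the members that passed in all libraries, and was -0.54 for Ppp1r1b. Groups of 5 to 8 libraries with this spread limit the precision of the highly variable members.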
